A study of Mus musculus with 26 samples.

Results

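The genes described here are the 7 subunit genes of Polycomb repressive complex 2 (PRC2) named by their symbols: Ezh2, Ezh1, Eed, Suz12, Jarid2, Mtf2 and Phf19. All 7 were found among the 18193 genes measured, and 24 probe sets on the array carry their names. The study measured mRNA on 26 Affymetrix arrays, in 13 groups of 2, from male C57BL/6 mouse embryonic stem (ES) cells on embryonic fibroblast feeders and from epiblast-like cells (EpiLC). AGP14 cells are labelled as Prdm14 knockout cells that carry a pPyCAG transgene for an Avitag-EGFP-Prdm14 protein, and were grown in 2i, in serum and in serum without LIF. Cells labelled Prdm14(-/-), and cells labelled Prdm14(+/+) with no genetic modification, called wild type here, were grown in those media and also in serum with a MEK inhibitor. N2B27 with LIF (1000 units per ml) and 2 inhibitors, PD0325901 against MEK at 0.4 uM and CHIR99021 against GSK3 at 3 uM, made up the 2i medium. In serum medium, fetal bovine serum was at 20% and LIF at 1000 units per ml, and cells spent 2 days in it; variants of it lacked LIF or had 0.4 uM PD0325901 added. Day 2 and day 3 EpiLC were made from Prdm14(+/+) cells carrying Blimp1-mVenus and Stella-ECFP (BVSC) transgenes, so EpiLC and wild-type ES cells differ in line as well as in stage. The labels do not say how many clones each line stands for or whether the 2 arrays of a group came from separate cultures, so the p-values reflect nothing beyond the spread of these arrays, possibly technical.

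PRC2 places methyl groups on lysine 27 of histone H3, a mark of silent developmental genes. Ezh2 is its main catalytic subunit in dividing cells and Ezh1 its alternative, less active one. Eed binds the finished mark and stimulates the enzyme, and Suz12 is the scaffold on which the core assembles. Mtf2 and Phf19 are Polycomb-like proteins that bring the complex to CpG islands, and Jarid2 is a cofactor of the other main form of the complex. In mouse ES cells the complex keeps genes of later lineages silent, and ES cells without a core subunit still grow but differentiate poorly. Prdm14, found in naive pluripotent cells and germ cells, is a zinc finger protein with a PR domain that is known to work with PRC2.

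The promoters of Suz12, Mtf2, Eed and Ezh2 are shown because the first 3 of these genes were lower together in EpiLC while Ezh2 did not pass the test. Each window holds the 250 bases before and the 50 bases after a transcription start, 5′ to 3′ on the gene's strand, from RefSeq on GRCm38.p6. Capitals mark matches, on either strand, to TTTCCCGC or TTTGGCGC (letters of E2F sites), CCAAT, or GGGCGG (the GC box); TTCNNNGAA, the spacing of STAT sites, was also searched and is in none of the members' windows.
Suz12, chr11:79992856-79993155, plus strand: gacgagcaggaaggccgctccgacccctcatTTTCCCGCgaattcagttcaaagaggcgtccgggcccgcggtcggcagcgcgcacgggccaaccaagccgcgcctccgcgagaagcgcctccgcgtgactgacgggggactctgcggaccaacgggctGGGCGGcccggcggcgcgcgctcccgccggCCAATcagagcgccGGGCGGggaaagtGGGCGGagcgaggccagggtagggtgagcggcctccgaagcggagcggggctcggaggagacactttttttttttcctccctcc
Mtf2, chr5:108065424-108065723, plus strand, 1 of 2 windows: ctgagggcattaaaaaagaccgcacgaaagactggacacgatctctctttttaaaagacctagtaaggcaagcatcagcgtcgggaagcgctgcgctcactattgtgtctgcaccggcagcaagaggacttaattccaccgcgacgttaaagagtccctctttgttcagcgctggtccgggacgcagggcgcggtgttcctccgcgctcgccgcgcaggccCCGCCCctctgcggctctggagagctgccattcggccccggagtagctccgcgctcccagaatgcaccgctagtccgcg
Eed, chr7:89980927-89981226, minus strand: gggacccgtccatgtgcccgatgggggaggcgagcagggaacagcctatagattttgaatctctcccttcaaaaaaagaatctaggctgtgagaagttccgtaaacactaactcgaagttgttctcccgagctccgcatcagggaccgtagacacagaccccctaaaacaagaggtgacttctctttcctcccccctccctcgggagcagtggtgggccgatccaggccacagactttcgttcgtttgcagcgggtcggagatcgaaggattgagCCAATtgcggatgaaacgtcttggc
Ezh2, chr6:47594981-47595280, minus strand: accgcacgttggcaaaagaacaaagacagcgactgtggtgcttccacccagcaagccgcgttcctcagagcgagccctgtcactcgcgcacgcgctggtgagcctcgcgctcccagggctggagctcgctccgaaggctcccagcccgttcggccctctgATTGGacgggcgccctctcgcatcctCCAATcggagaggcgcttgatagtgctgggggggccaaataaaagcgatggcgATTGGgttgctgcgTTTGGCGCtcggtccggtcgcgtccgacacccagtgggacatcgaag
All 7 genes matched the RefSeq table, with 9 windows. TTTCCCGC is in 1.07% of all 32851 promoters of this length and was found once in Suz12 and once in Phf19. TTTGGCGC is in 0.514% of them and was found in Ezh2 alone among the members. The Suz12 window also holds 3 GC boxes and 1 CCAAT, the Ezh2 window 3 CCAAT, the Eed window 1 CCAAT and the Mtf2 window shown 1 GC box. CCAAT is in 37.4%, GGGCGG in 35.7% and TTCNNNGAA in 8.3% of all windows. None of these letters is common to the 3 genes that were lower in EpiLC and missing from Ezh2.

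Values are log2 signals of 1 probe set per gene, as the authors deposited them, and a difference between groups is given on the log2 scale with its standard error (SE). Differences were tested with limma over all 18193 genes, and a gene is said to have risen, fallen or changed where its Benjamini-Hochberg adjusted p was under 0.05. The base of the logarithm is inferred to be 2 from the highest value, 13.89. Array medians lay between 4.86 and 5.01. In bulk RNA, fewer cells of a type and less RNA per cell cannot be told apart. Signal of the Prdm14 probe set in labelled knockout and wild type went against the labels of genotype in 2i and with MEK inhibitor. In 2i it averaged 11.29 in the arrays labelled knockout, against 9.18 in wild type. With MEK inhibitor it was again higher in labelled knockout, at 10.74 against 9.26 in wild type (adjusted p = 0.0491). In serum it averaged 5.94 in labelled knockout and 6.63 in wild type (adjusted p = 0.389). Without LIF it averaged 3.63 in labelled knockout and 4.73 in wild type (adjusted p = 0.153). Both were lower in labelled knockout without passing. In AGP14 it averaged 9.21 in 2i, lower than in labelled knockout (adjusted p = 0.001). In serum AGP14 had 6.38, which did not pass against labelled knockout (adjusted p = 0.593) or wild type (0.784). Without LIF AGP14 averaged 4.99, against 3.63 in labelled knockout (adjusted p = 0.0326) and 4.73 in wild type (0.769). Cells are therefore called labelled knockout throughout, AGP14 is likewise used as a label, and the position of the probe set relative to the deletion was not given in the sources used here. Spike-in control RNAs split the arrays into 2 sets. The lys control lay between 13.40 and 13.55 on 12 arrays (labelled knockout and wild type in 2i and with MEK inhibitor, and EpiLC) and between 6.86 and 7.44 on the other 14 (all AGP14, serum and no-LIF arrays). Serum against 2i, and MEK inhibitor against serum, in labelled knockout and wild-type cells, and AGP14 against labelled knockout in 2i, run across these sets and cannot be told apart from them; all other comparisons of 2 groups lie within 1 set.

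Cell identity was checked with marker lists. The mean log2 signal of 6 stem cell markers was 9.38 to 9.47 in EpiLC day 2 and 12.15 to 12.20 in wild type in 2i, and that of 4 epiblast-like markers was 11.38 to 11.39 against 6.06 to 6.31. The mean of 15 feeder fibroblast markers was 5.26 to 5.29 in EpiLC day 2, 6.59 to 6.86 in wild type in serum and 9.12 to 9.15 in wild type in 2i. No marker of these lists was listed at 0 on any array. Feeder markers thus moved with medium and with stage, and their part in the members' differences was not tested. Of 6 housekeeping genes, 5 changed between EpiLC day 2 and wild type in 2i: B2m fell by 3.54, Sdha by 0.41 and Ywhaz by 0.23, and Tbp rose by 0.36 and Actb by 0.15.

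Of the 7 members, 6 had a mean above the median of all genes (6.21). Phf19, at 5.19, was the dim one. Across the 26 arrays Ezh2 ranged from 10.39 to 10.96 (median 10.65), the narrowest range of the 7, and Mtf2 from 10.48 to 12.18 (median 11.27), the widest. Eed ranged from 10.76 to 12.08, Suz12 from 10.86 to 12.40, Jarid2 from 9.93 to 10.92, Ezh1 from 7.98 to 9.02 and Phf19 from 4.38 to 5.88. The span of the 13 group means was 1.37 for Mtf2, 1.22 for Eed, 1.20 for Suz12, 1.05 for Phf19, 0.95 for Ezh1, 0.89 for Jarid2 and 0.54 for Ezh2. The median SD between the 2 arrays of a group lay between 0.03 for Ezh2 and 0.13 for Phf19. Over the 21 comparisons of 2 groups, 46 of 147 pairs of a member and a comparison passed (31.3%), against 14.8% of all pairs of a gene and a comparison. Many of these comparisons share groups. Apart from Phf19 (percentile 39.6), the members' means lay at percentiles 75.7 to 97.4 of all genes. The share called among genes of like brightness was not tested, here or in the single comparisons below. Eed accounted for 12 of the 46 calls, Jarid2 for 11, Ezh2 for 10, Mtf2 for 5, Suz12 for 4, and Ezh1 and Phf19 for 2 each. The 4 Suz12 calls were all lower. Without any 1 array, 22 of the 46 calls held. Other settings of the processing (no intensity trend, quantile normalization, the mean of a gene's probe sets, a model of the compared groups alone, dim genes left out, replicate blocks) ended 33 of the 46, each by at least 1 setting, and 9 held under all these settings and without any 1 array. These 9 were Suz12 and Mtf2 in EpiLC day 2, Ezh2 in AGP14 against labelled knockout in serum and without LIF, Jarid2 in that comparison in 2i, Jarid2 and Ezh2 in serum against 2i in AGP14, and Jarid2 and Mtf2 in serum against 2i in wild type. Of these, Jarid2 in AGP14 against labelled knockout in 2i, and Jarid2 and Mtf2 in wild type, run across the spike-in sets. None of the settings addresses that split.

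**Figure D1:**
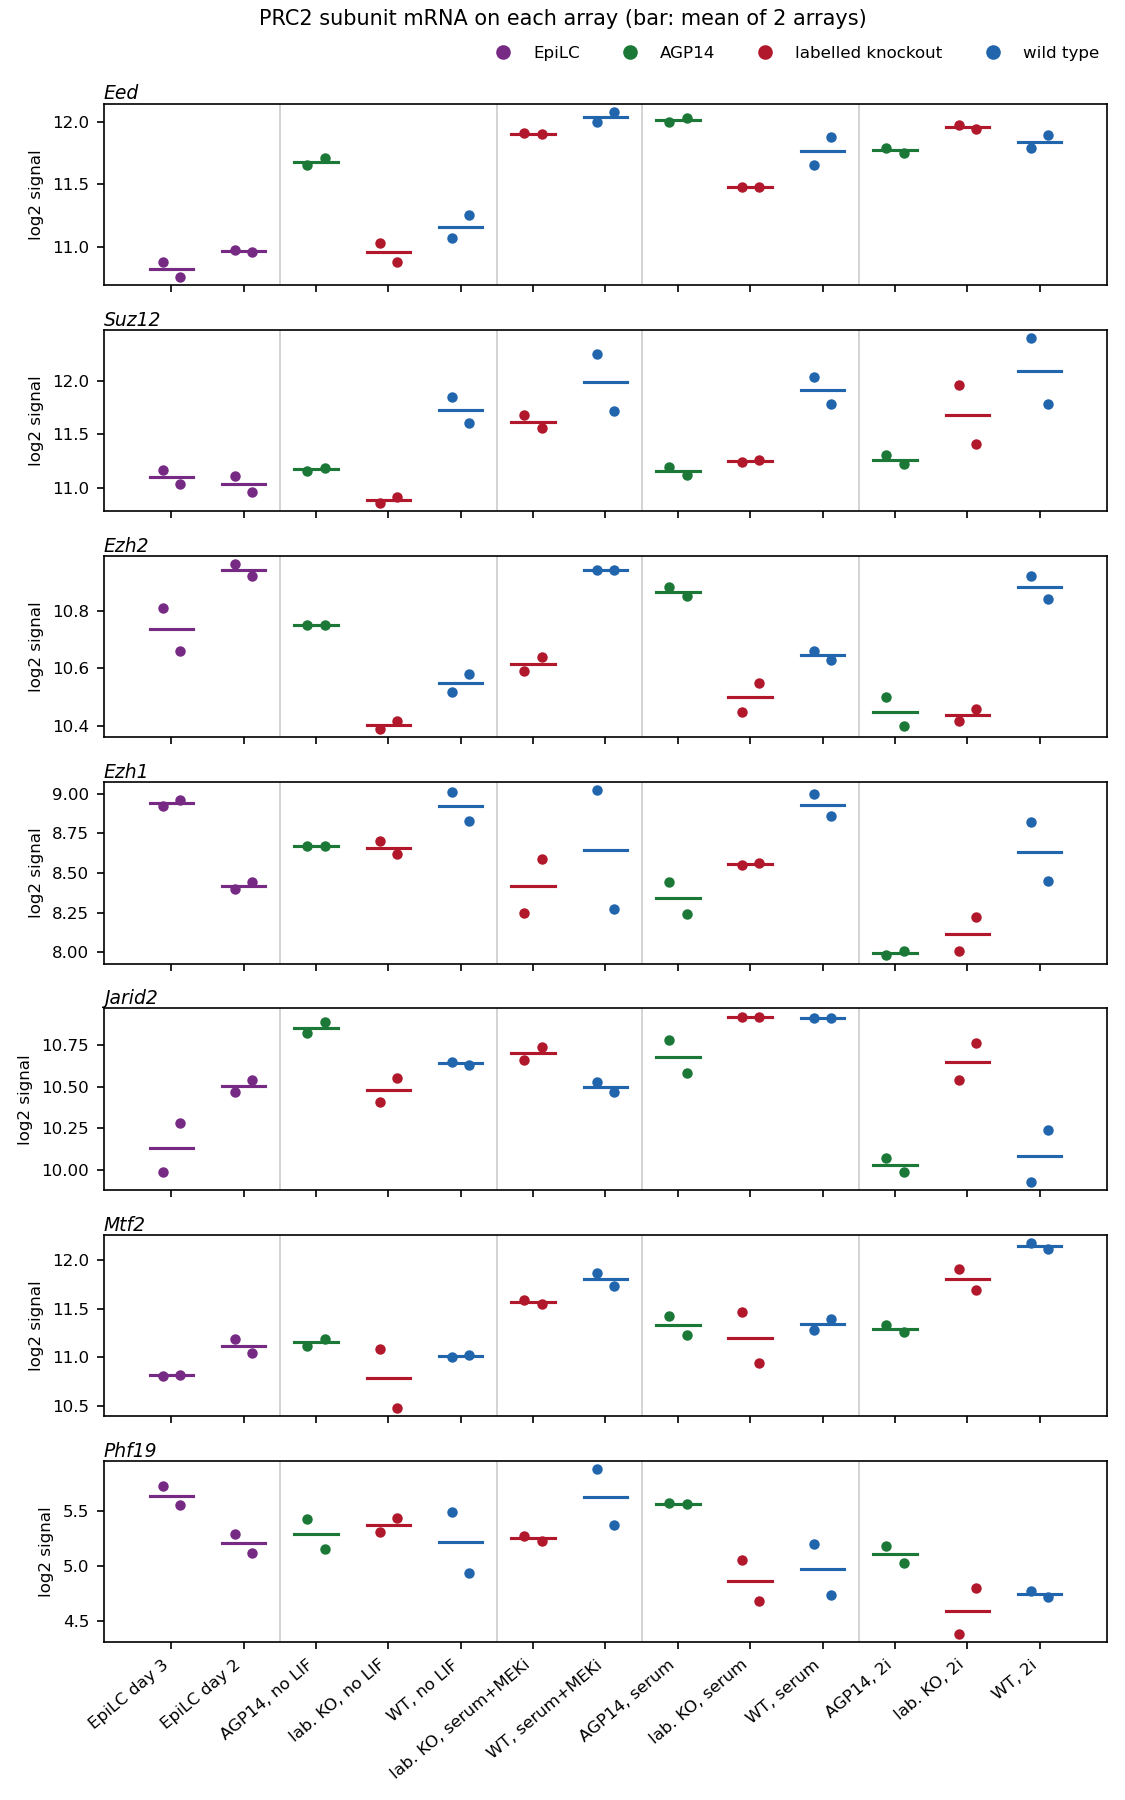
Log2 signal of each PRC2 subunit gene (panels) on each of the 26 arrays, by group; points are arrays, bars are means of 2 arrays, and each panel has its own axis. Suz12 lies at 11.61 or above on all 8 wild-type arrays and at 11.31 or below on all AGP14 and EpiLC arrays.

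Described over the 13 group means, which share labelling and arrays, Mtf2 moved with Eed (Pearson r = 0.79) and with Suz12 (0.78), and Eed with Suz12 (0.58). Ezh2 had r between -0.12 and 0.39 with the other members. The genes whose group means were most like those of Eed, over the same 13 points, were Stmn2, Fzd5 and Kdm3a (r = 0.98 each). For Suz12 they were Ppp1r13b (0.95), Inpp5d (0.91) and Lama3 (0.91), for Mtf2 Chd2 (0.95), Tenm4 (0.94) and Agtrap (0.94), and for Phf19 Frat2 (0.82), Pdcd4 (0.76) and Arl14ep (0.76).

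In EpiLC of day 2, set against wild-type ES cells in 2i, the scaffold Suz12, the mark reader Eed and the recruiter Mtf2 fell, Jarid2 rose, and the catalytic subunit Ezh2 did not pass the test. All these arrays share a spike-in level. Suz12 had 11.11 and 10.96 in EpiLC day 2, against 12.40 and 11.78 in wild type in 2i. It fell by 1.06 (SE 0.18, adjusted p = 0.000125). Eed had 10.97 and 10.96 in EpiLC day 2, against 11.79 and 11.89 in wild type, and fell by 0.88 (SE 0.07, adjusted p = 2.12e-08). Mtf2 had 11.19 and 11.05 in EpiLC day 2, against 12.18 and 12.12 in wild type, and fell by 1.03 (SE 0.15, adjusted p = 2.43e-05). The arrays of the groups did not overlap for any of these 3 genes, and the calls held without any 1 array. Jarid2 had 10.47 and 10.54 in EpiLC day 2, against 9.93 and 10.24 in wild type, and rose by 0.42 (SE 0.10, adjusted p = 0.00292); this call was lost without wild type replicate 1, where the difference was 0.27 (adjusted p = 0.0789). Ezh2 had 10.96 and 10.92 in EpiLC day 2, against 10.92 and 10.84 in wild type, arrays that overlap. Its difference was 0.06, with a 95% interval of -0.06 to 0.18. Ezh1 differed by -0.21 (95% interval -0.58 to 0.15) and Phf19 by 0.46 (-0.02 to 0.94), and neither passed. Of the members, 4 of 7 were called, against 38.3% of all genes in the comparison; the median difference was -0.22 over the members and -0.02 over all genes.

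The fall of Suz12 was seen on all 6 of its probe sets (-1.47 to -0.90, all passing), and that of Mtf2 on 5 of 6, the sixth at 0.10. All 3 Jarid2 probe sets rose (0.42 to 0.47). Eed has a second probe set, 1453830_at, with a mean of 3.62, near the bottom of the scale, on which the difference was 0.87, opposite to that of the bright one; the mean of the 2 probe sets did not differ (adjusted p = 0.994). Eed values therefore rest on 1 probe set throughout: of its 12 calls between groups, the mean of both probe sets ended all but that for LIF withdrawal in wild type.

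**Figure D2:**
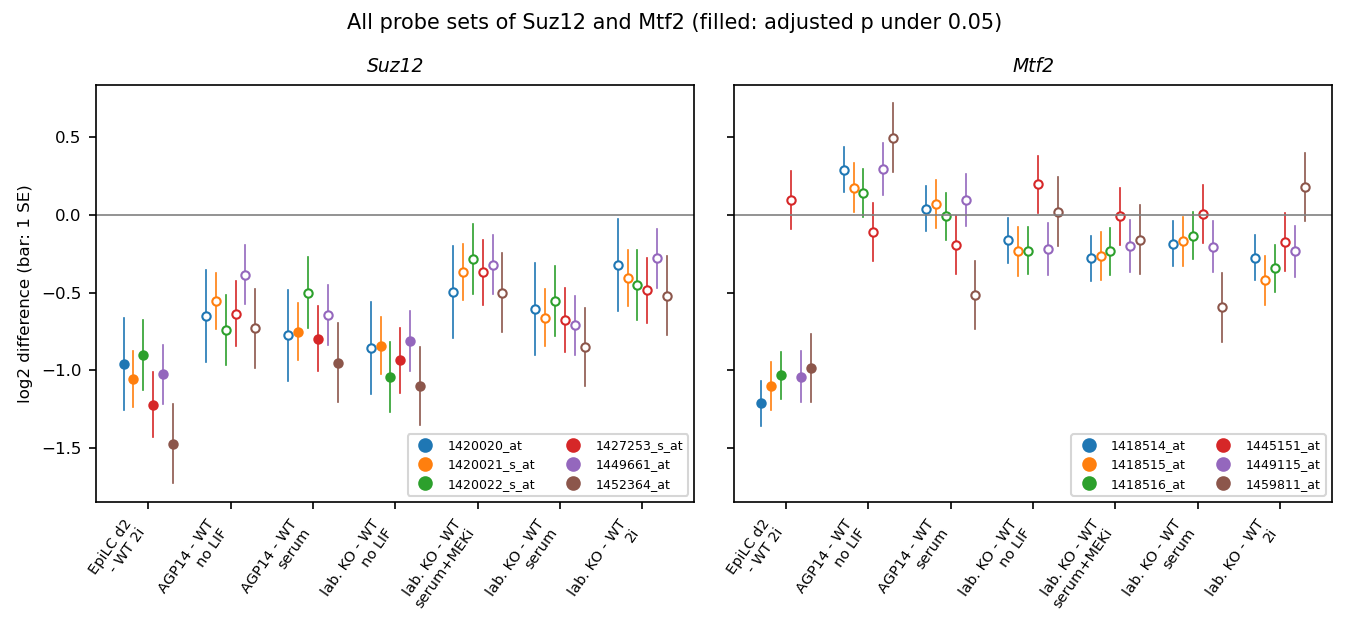
Log2 differences on each of the 6 probe sets of Suz12 (left) and of Mtf2 (right) in 7 comparisons; bars are 1 SE and filled points have an adjusted p under 0.05 over all probe sets. Every Suz12 point is below 0, and the lowest, on 1452364_at in EpiLC day 2 against wild type in 2i, is -1.47.

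A list of 7 other PRC2 components and accessory genes includes the H3 lysine 27 demethylases Kdm6a and Kdm6b. Of these 7, 2 fell in EpiLC day 2 and none rose, against 38.3% of all genes called. Epop, whose protein tunes the activity of the Polycomb-like form of PRC2, fell by 1.495 (SE 0.15, adjusted p = 2.8e-07), and Kdm6b, a demethylase that removes the H3 lysine 27 mark, fell by 0.66 (SE 0.14, adjusted p = 0.00102). The histone-binding Rbbp4 and Rbbp7 did not pass (0.07 and 0.08). Polycomb repressive complex 1 (PRC1) binds the mark and ubiquitinates histone H2A. Of 18 of its genes, 3 rose and 4 fell, against the same 38.3% of all genes. Phc1 rose by 1.04 (adjusted p = 1.88e-07) and Pcgf6 by 0.45 (0.000447), while Rnf2, the ubiquitin ligase, fell by 0.40 (7.9e-06), Pcgf2 by 0.72 (3.58e-05) and Phc3 by 0.85 (0.000711). Of 38 genes known as PRC2 targets in ES cells, 8 fell and none rose (38.3% of all genes were called), with a median of -0.32. The mean of this list lay between 4.245 and 4.891 on the arrays, dimmer than Phf19. Its calls, and their absence, are therefore less certain here and in the other comparisons. Hoxc8 fell by 3.21 (adjusted p = 1.06e-06), Hoxd9 by 2.19 (0.000381), Lhx2 by 1.36 (0.00274), Cdkn2a by 1.13 (0.00463) and Msx2 by 1.46 (0.00624). The feeder fibroblast list moved with them, with 13 of its 15 markers lower, 1 higher and a median of -3.72; its part in these falls was not tested.

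**Figure D3:**
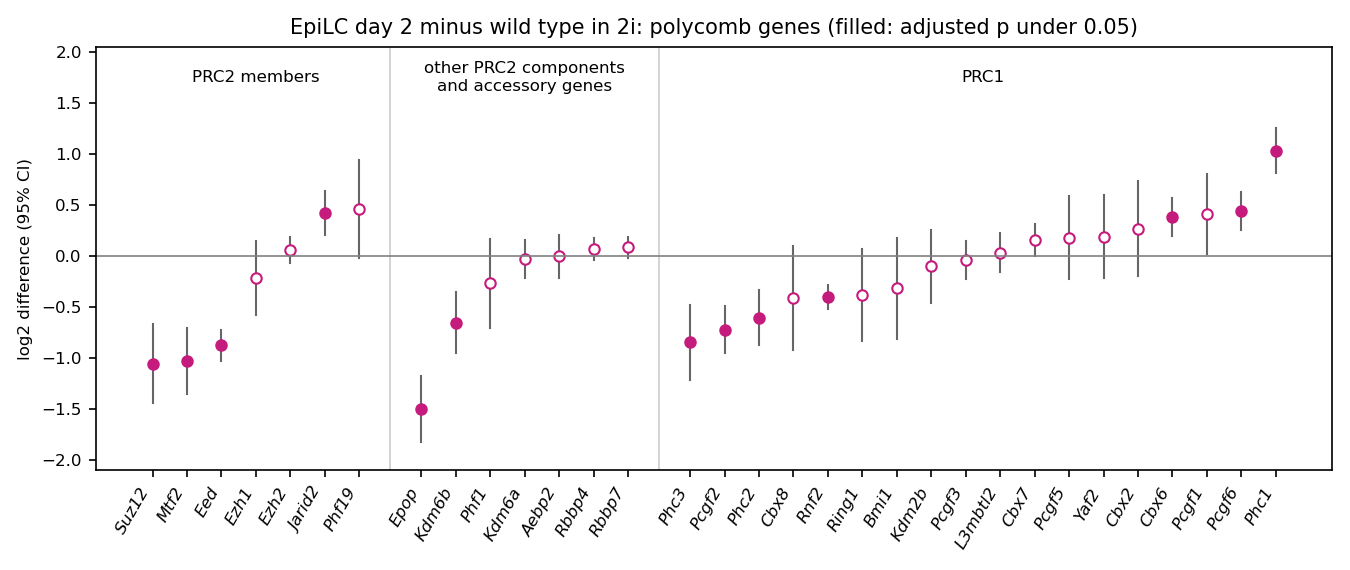
Log2 difference of EpiLC day 2 minus wild type in 2i, with 95% intervals. Genes are the 7 PRC2 members, 7 other PRC2 components and accessory genes (demethylases Kdm6a and Kdm6b included), and 18 PRC1 genes. Filled points have an adjusted p under 0.05. Suz12, Mtf2 and Eed lie between -1.06 and -0.88, and Epop is lowest at -1.495.

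Between day 3 and day 2 of EpiLC, the alternative catalytic subunit Ezh1 rose while Ezh2 and Jarid2 fell. Ezh1 had 8.92 and 8.96 at day 3, against 8.40 and 8.44 at day 2, and rose by 0.52 (SE 0.17, adjusted p = 0.0464). Ezh2 had 10.81 and 10.66 at day 3, against 10.96 and 10.92 at day 2, and fell by 0.21 (SE 0.06, adjusted p = 0.0214). Jarid2 had 9.99 and 10.28 at day 3, against 10.47 and 10.54 at day 2, and fell by 0.37 (SE 0.10, adjusted p = 0.0169). In each case the groups were apart, but the calls depended on single arrays: that of Ezh1 was lost without any 1 of the 4 arrays (adjusted p up to 0.182), that of Ezh2 without either day 2 array or day 3 replicate 2 (up to 0.272), and that of Jarid2 without either day 2 array or day 3 replicate 1 (up to 0.24). Quantile normalization or a fit with no intensity trend also ended the calls of Ezh1 and Ezh2 (up to 0.079 and 0.0591). Suz12 (0.07), Eed (-0.15) and Mtf2 (-0.31) did not pass. The members called were 3 of 7, against 17.6% of all genes.

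Labelled knockout and wild-type cells were compared in 4 media, each within a spike-in set. In 2i, Ezh2 fell and Jarid2 rose in labelled knockout cells. Ezh2 had 10.42 and 10.46 in labelled knockout, against 10.92 and 10.84 in wild type, and fell by 0.44 (SE 0.06, adjusted p = 0.000103). Jarid2 had 10.54 and 10.76 in labelled knockout, against 9.93 and 10.24 in wild type, and rose by 0.57 (SE 0.10, adjusted p = 0.00171), on all 3 of its probe sets. Both calls held without any 1 array; in a model of these 4 arrays alone neither passed (adjusted p = 0.149 and 0.209). In this comparison 2 of 7 members were called, against 9.15% of all genes. Ezh1 (-0.52, adjusted p = 0.072), Suz12 (-0.41, 0.206) and Mtf2 (-0.35, 0.198) did not pass, and Eed differed by 0.12 (95% interval -0.04 to 0.27).

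With MEK inhibitor, Ezh2 alone passed. It had 10.59 and 10.64 in labelled knockout, against 10.94 and 10.94 in wild type, and fell by 0.33 (SE 0.06, adjusted p = 0.00322), a call that held without any 1 array but not in a model of these 4 arrays alone (adjusted p = 0.312). Here 1 of 7 members was called, against 4.08% of all genes. In serum the difference in Ezh2 was -0.15 (adjusted p = 0.191) and without LIF -0.15 (0.201), and neither passed. The labelled knockout arrays of Ezh2 lay below all wild-type arrays of the same medium in all 4 media, while the call was made in 2. How often arrays lie apart like this over all genes was not counted. The difference in 2i minus that without LIF was -0.30, which did not pass (adjusted p = 0.0645).

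Suz12 lay lower in labelled knockout cells in every medium and passed in 2. In serum it had 11.24 and 11.26 in labelled knockout, against 12.04 and 11.78 in wild type, and fell by 0.66 (SE 0.18, adjusted p = 0.05, just under the limit). Without LIF it had 10.86 and 10.92 in labelled knockout, against 11.85 and 11.61 in wild type, and fell by 0.84 (SE 0.18, adjusted p = 0.0127). In 2i it had 11.96 and 11.41 in labelled knockout, against 12.40 and 11.78 in wild type, and these arrays overlap. With MEK inhibitor it had 11.68 and 11.56, against 12.25 and 11.72. The SD between the 2 arrays reached 0.44 in wild type in 2i, the highest of the 13 groups for this gene. The serum call was lost without any 1 of its 4 arrays (adjusted p up to 0.264) and the no-LIF call without either labelled knockout array or wild type replicate 1 (up to 0.135). A model of the compared groups alone ended both (adjusted p = 0.125 in serum and 0.0628 without LIF), and quantile normalization, the mean of probe sets or no intensity trend each ended the serum call. On all 6 Suz12 probe sets the difference was below 0 in all 4 media, from -0.85 to -0.56 in serum and from -1.10 to -0.81 without LIF, where 5 of the 6 passed over all probe sets; in serum none of the 6 passed limma over all probe sets.

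Eed also fell in serum: it had 11.48 and 11.48 in labelled knockout, against 11.65 and 11.88 in wild type, a fall by 0.29 (SE 0.07, adjusted p = 0.0367). That call was lost without either labelled knockout array or wild type replicate 2 (difference down to -0.17, adjusted p up to 0.297), and under the same 4 settings as that of Suz12 (up to 0.431). Without LIF the Eed difference was -0.21 and did not pass. In serum 2 of 7 members were called, against 4.17% of all genes, and without LIF 1 of 7, against 4.19%. In these media the median of the 6 stem cell markers was -0.54 in serum (2 of 6 lower) and -0.49 without LIF (3 of 6 lower), and that of the feeder markers 0.24 and 0.48 (1 and 2 of 15 higher). Their part in the members' differences was not tested. In 2i the stem cell median was 0.05 and the feeder median -0.04, with no marker of either list called by limma. Among the 4 epiblast-like markers, Dnmt3b alone passed in 2i, higher by 1.965 in labelled knockout (adjusted p = 5.71e-05). Pou3f1 differed by -0.995 there without passing (0.185). The part of the epiblast-like list was not tested either. Of 15 replication genes, 5 fell in labelled knockout cells in 2i and none in the other 3 media. The median difference over the 7 members was -0.35 in 2i, -0.15 in serum, -0.21 without LIF and -0.24 with MEK inhibitor, and over all genes it lay between -0.03 and -0.01. Of the 38 PRC2 target genes, 3 rose and 2 fell in 2i, 1 fell with MEK inhibitor, and limma called none in serum or without LIF.

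The genotype difference in Jarid2 was not the same in 2i as without LIF. It was 0.57 in 2i, 0.20 with MEK inhibitor, 0.01 in serum and -0.16 without LIF. The difference in 2i minus that without LIF was 0.73 (SE 0.15, adjusted p = 0.00941; 3.24% of all genes passed). This call was lost without wild type replicate 1 in 2i or labelled knockout replicate 1 without LIF (adjusted p up to 0.0504), or in a model of the compared groups alone (0.182). The response to serum against 2i was smaller in labelled knockout than in wild type for Jarid2, by -0.56 (adjusted p = 0.0465), and more negative for Eed, by -0.40 (adjusted p = 0.0455), in a test that 2.97% of all genes passed; each of these 2 calls was lost in 6 of the 8 fits without 1 array, and with no intensity trend or with the compared groups alone (up to 0.274 for Jarid2 and, over 4 settings, 0.514 for Eed). No member passed for the genotype difference in the response to LIF withdrawal, in which limma called no gene (0.0%, with 654 at an unadjusted p under 0.05), nor for that in MEK inhibitor against serum (0.231% of all genes).

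**Figure D4:**
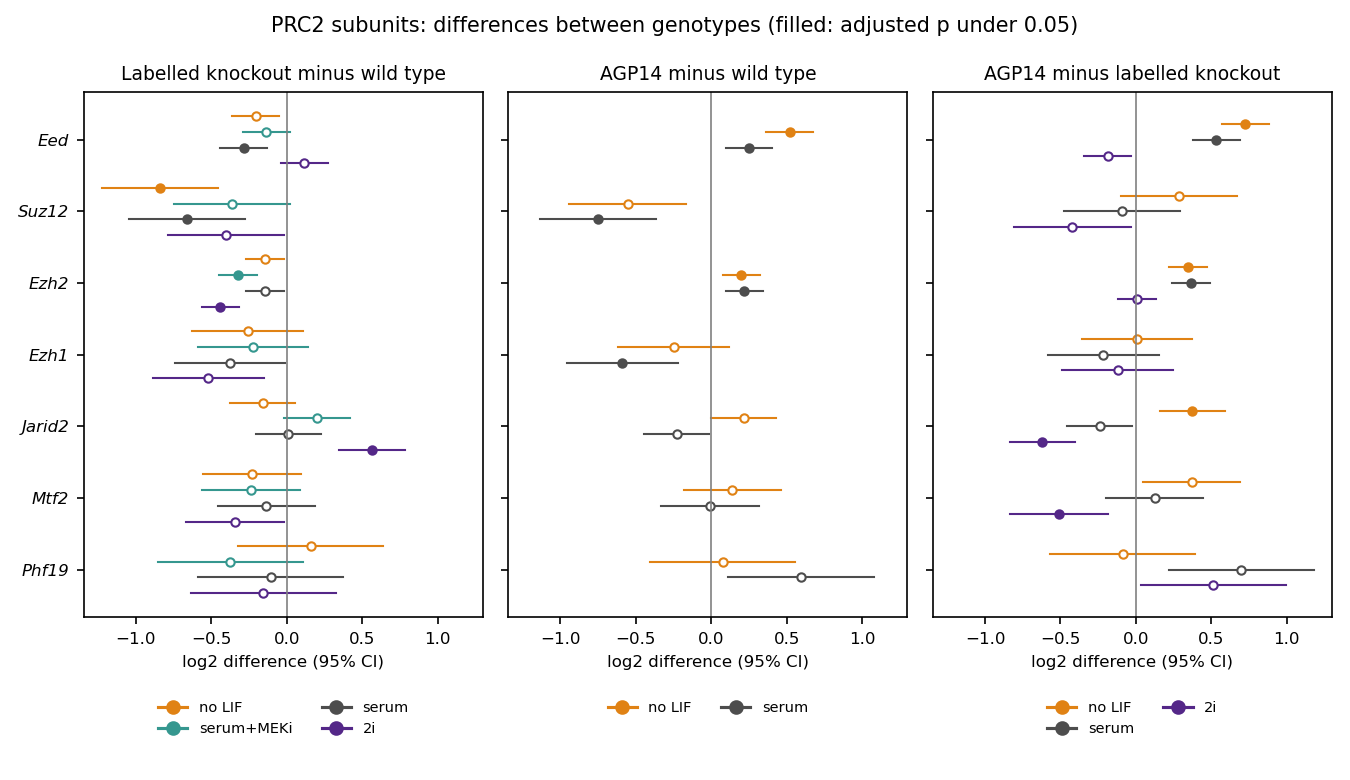
Log2 differences between genotypes for the 7 members, with 95% intervals, by medium; filled points have an adjusted p under 0.05. In the right panel Eed is at 0.73 without LIF and 0.54 in serum but at -0.19 in 2i.

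Arrays labelled AGP14 had more Eed, the mark reader, and more Ezh2, the enzyme, than labelled knockout arrays in serum and without LIF. Eed had 12 and 12.03 in AGP14 in serum, against 11.48 and 11.48 in labelled knockout, and rose by 0.54 (SE 0.07, adjusted p = 0.000139). Without LIF it had 11.65 and 11.71 in AGP14, against 11.03 and 10.88 in labelled knockout, and rose by 0.73 (SE 0.07, adjusted p = 2.54e-06). Ezh2 had 10.88 and 10.85 in AGP14 in serum, against 10.45 and 10.55 in labelled knockout, and rose by 0.37 (SE 0.06, adjusted p = 0.000542). Without LIF it had 10.75 and 10.75, against 10.39 and 10.42, and rose by 0.35 (SE 0.06, adjusted p = 0.000595). The groups were apart and all these calls held without any 1 array. Jarid2 rose by 0.38 without LIF (SE 0.10, adjusted p = 0.0198), a call lost without either AGP14 array or labelled knockout replicate 1 (adjusted p up to 0.17). Of the members, 2 of 7 were called in serum, against 10.5% of all genes, and 3 of 7 without LIF, against 13.3%. Of the 6 stem cell markers, 5 rose in both media, with medians of 1.18 in serum and 1.54 without LIF. Of the 4 epiblast-like markers, 3 fell in serum (median -1.97) and 2 without LIF (median -1.17), and of the 15 replication genes 2 and 7 rose. The part of these lists in the members' rises was not tested.

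Suz12 did not pass between AGP14 and labelled knockout in any medium. It had 11.20 and 11.12 in AGP14 in serum, against 11.24 and 11.26 in labelled knockout, and differed by -0.09 (95% interval -0.48 to 0.30). Without LIF it had 11.16 and 11.19, against 10.86 and 10.92, differing by 0.29 without passing (adjusted p = 0.375), although the AGP14 arrays lay above the labelled knockout arrays and all 6 probe sets were above 0. In 2i the difference was -0.42 (adjusted p = 0.11). There, across spike-in sets, all 6 probe sets were below 0 (-1.315 to -0.135) and 1 passed over all probe sets. Set against wild type, in comparisons added after the data had been seen, Suz12 fell in AGP14 in serum, and Eed and Ezh2 rose in both media. Suz12 in serum fell by 0.75 (SE 0.18, adjusted p = 0.0212), on arrays of 11.20 and 11.12 in AGP14 against 12.04 and 11.78 in wild type; the call was lost without either AGP14 array or wild type replicate 1 (adjusted p up to 0.233), with no intensity trend or with the mean of probe sets (up to 0.0637). Without LIF the difference was -0.56 (adjusted p = 0.0611). All 6 Suz12 probe sets were below 0 in both media. Eed was higher in AGP14 than in wild type by 0.25 in serum (adjusted p = 0.0484) and by 0.52 without LIF (0.00025), and Ezh2 by 0.22 (0.0332) and 0.20 (0.0382). Of these, the Eed call without LIF held without any 1 array; the Eed call in serum was lost without either AGP14 array or wild type replicate 1 (difference down to 0.14), and both Ezh2 calls without any 1 of their 4 arrays (adjusted p up to 0.291). No intensity trend or the compared groups alone also ended both Ezh2 calls (up to 0.136 in serum and 0.12 without LIF), and 4 other settings the Eed call in serum (up to 0.265). Ezh1 fell by 0.59 in serum (adjusted p = 0.0483), a call also lost without any 1 array (up to 0.306) and under 4 other settings (up to 0.672). The members called were 4 of 7 in serum, against 6.96% of all genes, and 2 of 7 without LIF, against 10.7%. Feeder markers were higher in AGP14 than in wild type, 5 of 15 in serum and 10 of 15 without LIF. The mean of the 6 stem cell markers was 11.82 in AGP14 against 11.28 in wild type in serum, and 11.50 against 10.40 without LIF. Of the 4 epiblast-like markers Pou3f1 alone passed, lower in AGP14 by 2.035 in serum (adjusted p = 0.0107) and by 2.03 without LIF (0.0061). The part of these lists was not tested.

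In 2i, across spike-in sets, Jarid2 and Mtf2 fell in AGP14. Jarid2 had 10.07 and 9.99 in AGP14, against 10.54 and 10.76 in labelled knockout, and fell by 0.62 (SE 0.10, adjusted p = 0.000232). Mtf2 had 11.33 and 11.26, against 11.91 and 11.70, and fell by 0.51 (SE 0.15, adjusted p = 0.0209), a call lost without either AGP14 array or labelled knockout replicate 1 (adjusted p up to 0.157), and under quantile normalization or the mean of probe sets (up to 0.283). Ezh2 had 10.50 and 10.40, against 10.42 and 10.46, and differed by 0.01 (95% interval -0.11 to 0.13). Of the 7 members, 2 were called, against 24.2% of all genes. In the same comparison 7 of 15 replication genes rose (median 0.245), and 4 of 15 feeder markers, 3 of 6 housekeeping genes and 1 of 6 stem cell markers fell (medians -0.34, -0.22 and -0.21); their part was not tested. The difference of AGP14 from labelled knockout in 2i minus that without LIF was -0.91 for Eed (adjusted p = 9.31e-06), -0.995 for Jarid2 (0.000107), -0.88 for Mtf2 (0.00871) and -0.34 for Ezh2 (0.00946), in a test that 17.0% of all genes passed. The last 2 were lost without labelled knockout replicate 2 without LIF (Mtf2, -0.58, adjusted p = 0.0535) and without AGP14 replicate 2 in 2i (Ezh2, -0.29, 0.0573), and also with the mean of probe sets (Mtf2, 0.0636) and under quantile normalization (Ezh2, 0.179). The Eed call was lost with the mean of its probe sets (adjusted p = 0.149), and its dim probe set gave -0.03. In 2i these AGP14 and labelled knockout arrays differ in spike-in level as well as in genotype, and the 2 cannot be told apart.

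Serum was set against 2i in each genotype; AGP14 alone gives this comparison within a spike-in set. There Jarid2, Ezh2 and Eed rose. Jarid2 had 10.78 and 10.58 in AGP14 in serum, against 10.07 and 9.99 in 2i, and rose by 0.65 (SE 0.10, adjusted p = 0.0002). Ezh2 had 10.88 and 10.85 in serum, against 10.50 and 10.40 in 2i, and rose by 0.42 (SE 0.06, adjusted p = 7.33e-05). Eed had 12 and 12.03 in serum, against 11.79 and 11.75 in 2i, and rose by 0.25 (SE 0.07, adjusted p = 0.026). The Jarid2 and Ezh2 calls held without any 1 array, and that of Eed was lost without any 1 of its 4 (adjusted p up to 0.15) and with no intensity trend. Mtf2 differed by 0.04 (95% interval -0.29 to 0.36) and Suz12 by -0.11 (-0.49 to 0.28). In all, 3 of 7 members were called, against 18.2% of all genes. Feeder markers fell in the same comparison (10 of 15 lower, 2 higher, median -1.92), all 4 epiblast-like markers rose (median 3.13) and 1 of 6 stem cell markers fell, and their part was not tested.

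Across the spike-in sets, Jarid2 rose in serum in labelled knockout cells too, by 0.27 (adjusted p = 0.0489), and in wild type by 0.83 (4.63e-06). The labelled knockout call was lost without either serum array or 2i replicate 1 (difference down to 0.16, adjusted p up to 0.376), and under 3 other settings (up to 0.408). Mtf2 fell in both: it had 11.47 and 10.94 in serum, against 11.91 and 11.70 in 2i, in labelled knockout (a fall by 0.60, SE 0.15, adjusted p = 0.00464). In wild type it had 11.28 and 11.40, against 12.18 and 12.12 (a fall by 0.81, SE 0.15, adjusted p = 0.000393). The labelled knockout call was lost without 2i replicate 1 or serum replicate 2 (-0.34 without serum replicate 2, adjusted p = 0.134), or with the compared groups alone (0.0644). Eed fell in labelled knockout by 0.48 (SE 0.07, adjusted p = 4.79e-05), with 11.48 and 11.48 in serum, against 11.97 and 11.94 in 2i. In wild type it differed by -0.08 (95% interval -0.23 to 0.08). Ezh2 fell in wild type by 0.24 (adjusted p = 0.00433), a call lost under quantile normalization or with the compared groups alone (adjusted p up to 0.105). Ezh1 passed in no genotype, although its serum arrays lay above its 2i arrays in all 3. All 4 Ezh1 probe sets were above 0 in labelled knockout (0.44 to 1.545, 2 passing over all probe sets) and in wild type (0.02 to 1.095, 1 passing). In AGP14 3 of 4 were above 0 and none passed. The members called were 3 of 7 in each of labelled knockout and wild type, against 35.8% and 34.6% of all genes. Feeder markers fell here too (12 of 15 lower in each), all 4 epiblast-like markers rose (medians 5.32 in labelled knockout and 4.14 in wild type), and 5 of 6 stem cell markers fell in each (medians -1.68 and -0.99). Of the replication genes, 10 rose and 2 fell in labelled knockout, and 5 rose and 3 fell in wild type. The part of these lists was not tested.

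The serum response of AGP14 differed from those of the other genotypes, in tests that run across the spike-in sets. Set against labelled knockout it was higher by 0.72 for Eed (adjusted p = 0.00017, lost with the mean of its probe sets at 0.679). For Ezh2 it was higher by 0.36 (0.00811, lost under quantile normalization at 0.109), and 14.2% of all genes passed. Set against wild type it was higher by 0.65 for Ezh2 (adjusted p = 6.91e-05) and by 0.85 for Mtf2 (0.015), with 13.3% of all genes passing. The Mtf2 call was lost without AGP14 replicate 2 in 2i, AGP14 replicate 1 in serum or wild type replicate 1 in serum (adjusted p up to 0.0745), and also when its probe sets were averaged (0.294). The Suz12 probe set 1449661_at lay at 7.96 to 9.36 on the 12 arrays with a high spike-in level and at 6.93 to 8.18 on the other 14. For serum against 2i, 1 of 6 Suz12 probe sets passed lower in labelled knockout (range -1.455 to 0.08) and 1 in wild type (-1.025 to 0.36). For MEK inhibitor against serum, 1 passed higher in labelled knockout (-0.06 to 1.47) and 1 in wild type (-0.17 to 1.08). The chosen Suz12 probe set passed in none of these comparisons, which run across the sets.

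**Figure D5:**
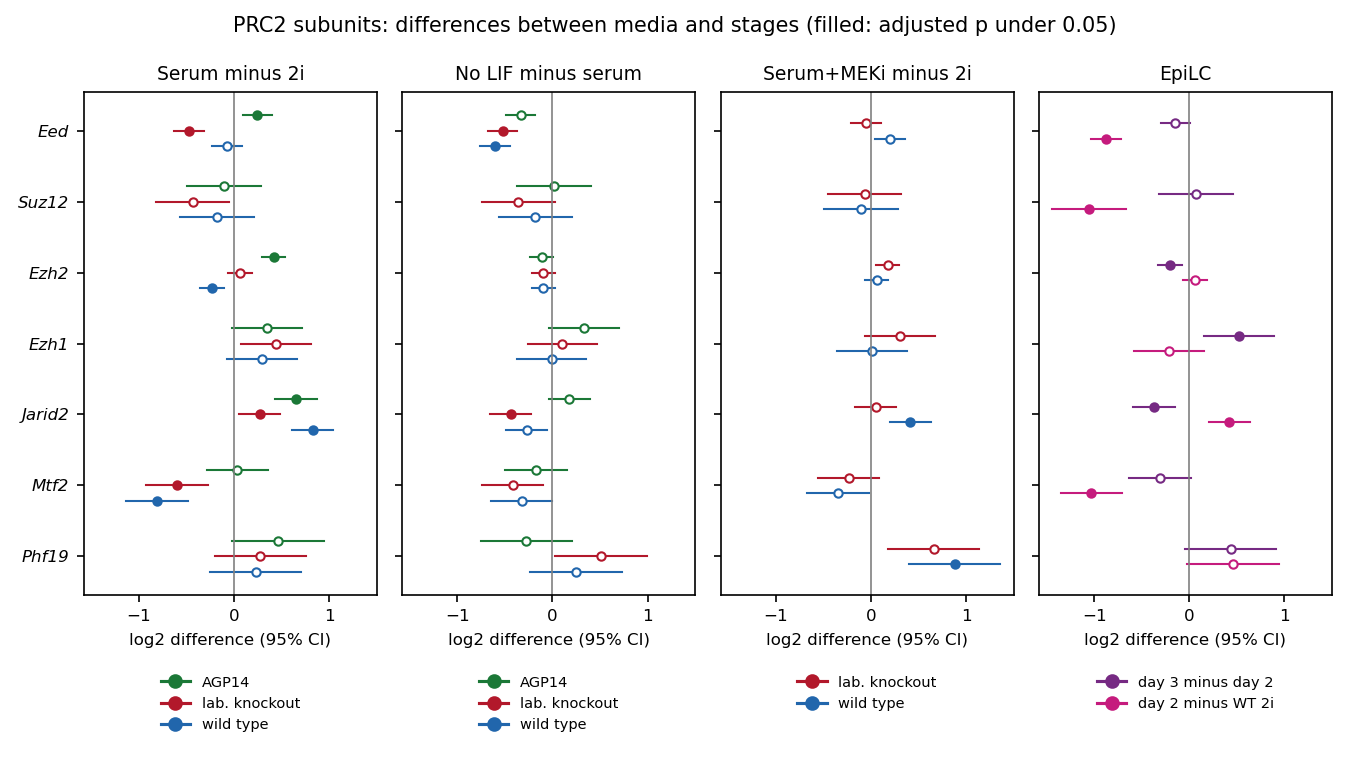
Log2 differences between media and stages for the 7 members, with 95% intervals; filled points have an adjusted p under 0.05. Serum minus 2i runs across spike-in sets in labelled knockout and wild type but not in AGP14, and Eed without LIF is below 0 in all 3 genotypes.

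Eed fell without LIF in labelled knockout and wild-type cells. In labelled knockout cells Eed had 11.03 and 10.88 without LIF, against 11.48 and 11.48 in serum with LIF, and fell by 0.53 (SE 0.07, adjusted p = 0.000898). In wild type it had 11.07 and 11.25 without LIF, against 11.65 and 11.88 with LIF, and fell by 0.61 (SE 0.07, adjusted p = 0.000256). In AGP14 it had 11.65 and 11.71 without LIF, against 12 and 12.03 with LIF, differing by -0.34 without passing (adjusted p = 0.0649). The groups were apart in all 3 genotypes, and both calls held without any 1 array. With the compared groups alone neither passed (adjusted p = 0.369 in wild type). The difference of AGP14 from labelled knockout in this response was 0.19 for Eed (95% interval -0.03 to 0.41) and did not pass. Jarid2 fell in labelled knockout by 0.44 (SE 0.10, adjusted p = 0.0448), with 10.41 and 10.55 without LIF against 10.92 and 10.92 with it; the call was lost without any 1 of the 4 arrays (up to 0.345) and under 3 other settings (up to 0.146). Ezh2 differed by -0.12 to -0.10 in the 3 genotypes and Suz12 by -0.36 to 0.02, and none passed. LIF withdrawal changed few genes: 0.302% in AGP14 (limma called 0 of 7 members, with 1 at an unadjusted p under 0.05), 1.1% in labelled knockout (2 of 7) and 1.5% in wild type (1 of 7). Of the 6 stem cell markers, 4 fell in labelled knockout (median -0.57) and 4 in wild type (median -0.72), and none was called in AGP14 (median -0.24).

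Adding the MEK inhibitor to serum, compared across spike-in sets, went with more Eed. Eed had 11.91 and 11.90 with inhibitor, against 11.48 and 11.48 without it, in labelled knockout, and rose by 0.43 (SE 0.07, adjusted p = 0.000316). With both probe sets averaged Eed did not pass there (adjusted p = 0.686). In wild type it had 12 and 12.08, against 11.65 and 11.88, and rose by 0.28 (SE 0.07, adjusted p = 0.00971), a call lost without serum replicate 1 or inhibitor replicate 2 (difference 0.16 without serum replicate 1, adjusted p = 0.197), under quantile normalization, with the compared groups alone and with both probe sets averaged (up to 0.331). In wild type Ezh2 rose by 0.30 (adjusted p = 0.00113), Mtf2 by 0.47 (0.0329) and Phf19 by 0.66 (0.0428), and Jarid2 fell by 0.41 (0.0062). Of these, Ezh2 held without any 1 array but not with the compared groups alone (adjusted p = 0.0647). Mtf2 was lost without any 1 of the 4 arrays (adjusted p up to 0.173), Phf19 without serum replicate 2 or inhibitor replicate 1 (up to 0.344), and Jarid2 without inhibitor replicate 2 (0.053). The Mtf2 and Phf19 calls were each lost under 3 other settings too (up to 0.0676 and 0.81). Ezh1 passed in neither genotype. In labelled knockout all 4 of its probe sets were below 0 (-1.465 to -0.135), and 1 of them passed over all probe sets. The members called were 1 of 7 in labelled knockout, against 24.5% of all genes, and 5 of 7 in wild type, against 25.4%. Stem cell markers rose with them, 6 of 6 in labelled knockout (median 1.33) and 4 of 6 in wild type (median 0.93), as did feeder markers, 10 of 15 and 11 of 15. Of the 4 epiblast-like markers, 3 fell in labelled knockout (median -2.01) and 2 in wild type (median -1.39). The mean of that list was 10.02 on wild type replicate 1 with inhibitor and 8.2 on replicate 2, so these 2 arrays stood apart. Of 6 housekeeping genes, 4 rose and 1 fell in labelled knockout and 3 rose in wild type. The part of these lists in the members' differences was not tested.

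Within a spike-in set, serum with MEK inhibitor could be compared with 2i, in comparisons also added after the data had been seen. In labelled knockout limma called 0 of 7 members, with 2 at an unadjusted p under 0.05, against 13.2% of all genes called; the lowest adjusted p values were 0.0612 for Ezh2 (0.18) and 0.0669 for Phf19 (0.66). In wild type 2 of 7 passed, against 12.5% of all genes: Jarid2 rose by 0.42 (SE 0.10, adjusted p = 0.0114) and the dim Phf19 by 0.88 (SE 0.23, adjusted p = 0.0154). Jarid2 had 10.53 and 10.47 with inhibitor, against 9.93 and 10.24 in 2i, and Phf19 had 5.88 and 5.37, against 4.77 and 4.72. Jarid2 was lost without 2i replicate 1 or inhibitor replicate 1 (adjusted p up to 0.18), and Phf19 without either 2i array or inhibitor replicate 1 (up to 0.193). With the compared groups alone neither passed (adjusted p = 0.189 and 0.16). Mtf2 differed by -0.35 (95% interval -0.67 to -0.02, adjusted p = 0.173) and Eed by 0.20 (adjusted p = 0.0891). Feeder markers fell here as well, 12 of 15 in labelled knockout and 11 of 15 in wild type, and 2 rose in each. All 4 epiblast-like markers rose in each (medians 2.47 and 2.51). A replicate block within genotype called more members than the reported fit in labelled knockout and in wild type.

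Placed in order of level, Eed was highest in wild type with MEK inhibitor (12.04) and lowest in EpiLC day 3 (10.82), and for 6 of the 12 neighbouring pairs of groups the arrays overlapped. Suz12 was highest in wild type in 2i, followed by wild type with MEK inhibitor, in serum and without LIF, a run of neighbours that overlap, and lowest in labelled knockout without LIF (10.89); 9 of 12 neighbours overlapped. Mtf2 was highest in wild type in 2i (12.15), apart from all other groups, and lowest in labelled knockout without LIF (10.79). Ezh2 was highest in EpiLC day 2 and in wild type with MEK inhibitor (10.94 each) and lowest in labelled knockout without LIF (10.41), with 9 of 12 neighbours overlapping. Jarid2 was highest in serum, at 10.92 in labelled knockout and 10.91 in wild type, and lowest in AGP14 in 2i (10.03). Ezh1 ranged from 8.94 in EpiLC day 3 to 8.0 in AGP14 in 2i, with 9 of 12 neighbours overlapping, and Phf19 from 5.64 in EpiLC day 3 to 4.59 in labelled knockout in 2i, with 11 of 12.

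The genes on the list of other PRC2 components and accessory genes, demethylases included, followed their own courses. Rbbp7 was higher in labelled knockout than in wild type in 2i, by 0.42 (SE 0.05, adjusted p = 2.45e-05), and with MEK inhibitor, by 0.36 (0.000259). Among the 7 genes of that list it was the only one called between these genotypes. In serum it fell by 0.41 in AGP14, set against labelled knockout (adjusted p = 2.91e-05). Epop rose by 1.53 with MEK inhibitor against serum in labelled knockout (adjusted p = 1.13e-06) and by 0.96 in wild type (0.000157), across spike-in sets. Kdm6a, an H3 lysine 27 demethylase, rose in serum with MEK inhibitor against 2i by 0.45 in labelled knockout (0.00204) and by 0.66 in wild type (6.91e-05), within a spike-in set. In 2i, 3 of 18 PRC1 genes fell in labelled knockout cells and none rose, against 9.15% of all genes called. Phc1 fell by 0.48 (adjusted p = 0.00589), Cbx2 by 0.79 (0.0295) and Pcgf5 by 0.67 (0.0366).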

How the data were processed

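Values are the log2 signals deposited by the authors in the series matrix, for 45100 probe sets on 26 arrays; how the authors made them from scanned images was not given in the sources used here, and the base 2 is inferred from their range. RNA was extracted with RNeasy Micro and labelled in 1 cycle, per the labels' protocols. After leaving out 64 control probe sets, 932 with several gene symbols and 9160 unnamed here, each of 18193 genes was given its single-symbol probe set of highest mean. On each array 361 to 453 probe sets were exactly 0, none of them a member's. Arrays give no counting depth, so their number, 2 per group, limits the precision.

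One limma model (version 3.58.1, R 4.3.3) with a mean for each of 13 groups and an intensity trend was fitted to all genes, with Benjamini-Hochberg adjustment over all genes in each comparison and a threshold of 0.05; it had 13 residual degrees of freedom. The fit was run on simulated data with independent normal noise, which lack the shared deviations of same-numbered arrays. Named genes are the 7 members, Prdm14, genes among the 5 smallest p of their list in a comparison or given as not passing, and, for each member whose group means span at least 1 log2 unit, the 3 genes of highest Pearson correlation with it over the group means, among genes that also span 1 unit and reach a group mean of 7. The members and gene lists were chosen with earlier results of these data known. AGP14 against wild type, MEK inhibitor against 2i, and the differences between 2i and no LIF and between serum responses of AGP14 and other cells were added after seeing the data. Alternatives were quantile normalization, the mean of a gene's probe sets, no trend, a model of the compared groups alone, dim genes left out, replicate blocks, and leaving out each array. Promoters were searched with Python 3.11.15.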

Additional observations from a re-analysis of the deposited data

Results flagged for a closer look

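These results are given because an effect on a member differed between genotypes or media by a limma test of the difference itself. The genotype difference (labelled knockout minus wild type) in Jarid2 was larger in 2i than without LIF by 0.725. The difference of AGP14 from labelled knockout in 2i minus that without LIF was -0.91 for Eed, -0.995 for Jarid2, -0.88 for Mtf2 and -0.335 for Ezh2. The serum response (serum minus 2i) in AGP14 exceeded that in labelled knockout by 0.72 for Eed and 0.355 for Ezh2, and that in wild type by 0.65 for Ezh2 and 0.845 for Mtf2. The serum response in labelled knockout minus that in wild type was -0.40 for Eed and -0.555 for Jarid2. The values that involve AGP14 in 2i cross the spike-in sets and cannot be told apart from them. The others, of labelled knockout against wild type, compare genotype differences that each lie within 1 spike-in set.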

How the results depend on the processing

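With 2 arrays a group, precision is limited, and dim probe sets (Phf19, the second of Eed) are the least certain. The replicate block kept all 57 called member values, differences between responses included, and called 9 others. Counts below are members called of 7, with the reported count in brackets; the cause of a change was not tested, except that fewer arrays or genes enter some fits by construction.

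For labelled knockout against wild type, the compared groups alone gave 0 in 2i (2), 0 in serum (2), 0 without LIF (1) and 0 with MEK inhibitor (1), and quantile normalization, the mean of probe sets and no trend each gave 0 in serum. Without 1 array these counts ran 2 to 4, 0 to 1, 0 to 1 and 1 to 2. For AGP14 against labelled knockout, in 2i (2) quantile and probe-set mean gave 1 each, with 1 to 3 without 1 array, and in serum (2) probe-set mean gave 1. For AGP14 against wild type, in serum (4) quantile gave 2, probe-set mean 1, no trend 0 and groups alone 1, with 0 to 2 without 1 array; without LIF (2) probe-set mean and no trend gave 1 each, and every fit without 1 array 1. For serum against 2i in labelled knockout (3), quantile gave 5, the block within genotype 5, and fits without 1 array 1 to 4. For no LIF against serum, AGP14 (0) had 1 under groups alone, dim genes left out, the replicate block and the block within genotype; labelled knockout (2) had 1 under quantile, probe-set mean and no trend, 0 under groups alone and 1 to 2 without 1 array; wild type (1) had 0 under groups alone. For MEK inhibitor against serum, labelled knockout (1) had 2 under quantile and groups alone, 3 under the block within genotype and 1 to 2 without 1 array; wild type (5) had 2 under quantile, probe-set mean and groups alone, and 2 to 4 without 1 array. For MEK inhibitor against 2i, labelled knockout (0) had 1 under dim genes left out and the replicate block and 2 under the block within genotype; wild type (2) had 1 under probe-set mean and dim genes left out, 0 under groups alone, 4 under the block within genotype and 0 to 2 without 1 array. For EpiLC day 3 against day 2 (3), quantile and no trend gave 1, the block within genotype 5, and fits without 1 array 0 to 1. The serum response of labelled knockout against wild type (2) had 1 under quantile and probe-set mean, 0 under no trend and groups alone, and 0 to 2 without 1 array; of AGP14 against labelled knockout (2) 1 under quantile; of AGP14 against wild type (2) 1 under probe-set mean and 1 to 3 without 1 array. The 2i minus no-LIF difference of labelled knockout from wild type (1) had 0 under groups alone, 2 with dim genes left out and 0 to 1 without 1 array; that of AGP14 from labelled knockout (4) had 2 under probe-set mean.

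Reversed signs came from other probe sets. The mean of probe sets gave Eed -0.055 for AGP14 against labelled knockout in serum, -0.305 for AGP14 against wild type in serum and -0.22 for MEK inhibitor against serum in wild type. The dim Eed probe set gave -0.645 and -0.25 for AGP14 against labelled knockout in serum and without LIF, 0.41 for serum against 2i in labelled knockout, -0.205 and -0.72 for MEK inhibitor against serum in labelled knockout and wild type, 0.87 for EpiLC day 2, -0.86 for AGP14 against wild type in serum and -0.365 for the serum response of AGP14 against labelled knockout. Ezh1 1429630_at gave 0.93 for AGP14 against labelled knockout in 2i, -0.29 for EpiLC day 3 against day 2 and 0.68 for AGP14 against wild type in serum. Jarid2 1450710_at gave -0.07 for serum against 2i in labelled knockout. Mtf2 1418515_at gave 0.035 for AGP14 against labelled knockout in 2i, 1445151_at 0.095 for EpiLC day 2 and 0.115 for the 2i minus no-LIF difference of AGP14, and 1459811_at -0.355 for the serum response of AGP14 against wild type. Phf19 1431857_at gave -0.32 for MEK inhibitor against serum in wild type.

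Replicate numbers were not taken to pair arrays, although same-numbered arrays deviated together within wild type and within labelled knockout. The correlation was over 0.1 in 6 of 6 wild-type pairs and 5 of 6 labelled knockout pairs, against 0 of 62 between genotypes. The reported fit counts such shared shifts as spread. A replicate block within genotype kept all 23 called member values that it covered and called 13 others. Deviations of same-numbered arrays correlated at 0.106 to 0.216 within wild type, 0.099 to 0.202 within labelled knockout, 0.014 to 0.071 within AGP14 and 0.016 within EpiLC, and at -0.061 to 0.048 between genotypes.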
